A study of Rattus norvegicus with 12 samples.

Results

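The genes described here are Msln, Gabrp, Klf5, Lgals4, Sncg, Map2, Ankrd1 and Acta1, 8 of the 14217 genes named on the array. They were chosen by measured values: they were picked because their RNA lay about 30-fold or more above nontumor liver in tumors of the LEC (Long Evans Cinnamon) rat at 67 weeks, and because they are better known from tissues other than the liver cell. The platform annotation gave them 14 of the 31042 probe sets tested. Since the tumor and nontumor values chose these genes, the difference between those groups is described and not tested.

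The LEC rat carries a defect in the copper-exporting ATPase Atp7b, accumulates copper in the liver, and develops hepatitis and then liver tumors without any treatment. The study placed total liver RNA on 12 Affymetrix rat expression arrays. Of these 4 held LEC tumor and 4 adjacent LEC nontumor liver at 67 weeks, 1 held liver of the LEA (Long Evans Agouti) control strain at 67 weeks, and 3 held livers of LEC rats aged 4, 26 and 39 weeks. Each tumor or nontumor array held RNA of 2 of 8 paired specimens mixed in equal amounts. The other 4 arrays were RNA pools whose number of rats is not given, so a single array stands for each of those groups. All rats were labelled male, were kept free of specific pathogens, and received no agent that the labels name. The tumors' histology is not given. Nothing says how the mixed pairs were divided, so the spread between arrays of a group is the spread between pools of rats.

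Values are log2 expression after RMA, in which a difference of 1 is 2-fold. The array medians lay between 7.39 and 7.51. The array carries probe sets for RNAs of Bacillus subtilis that a rat sample lacks, and the highest of 27 such controls on each array served as the level of an absent RNA. It was 5.88 to 6.01 on the nontumor arrays, 6.11 to 6.22 on the 4 single arrays and 5.52 to 5.67 on the tumor arrays. Of the 27 controls, 26 had a lower mean in tumor than in nontumor, by a median of -0.16 across all 27, or -0.27 once each array's median was subtracted. The arrays labelled 26 and 39 weeks stood apart in the check of sex: Xist, the RNA of the inactive X chromosome, read 5.27 and 5.67 there against 11.36 to 13.12 on the other 10 arrays. Eif2s3y, a gene of the Y chromosome, read 8.90 and 8.18 there and 3.65 to 3.81 on the other 10. All 12 were labelled male, so the levels on 10 arrays go against that label, and every comparison of the 2 arrays with the rest also compares arrays that differ in these genes. The tumor and nontumor arrays do not differ in this way.

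As background, the 8 genes belong to different kinds of protein. Mesothelin (Msln) is an anchored surface glycoprotein of the mesothelium that many carcinomas carry, and galectin-4 (Lgals4) is a sugar-binding protein of intestinal epithelium. Gabrp encodes the pi subunit of GABA-A receptors, which is made mostly outside the brain, and Klf5 is a zinc-finger transcription factor of dividing epithelial cells. Gamma-synuclein (Sncg) and the microtubule-binding protein Map2 are best known from neurons, and skeletal alpha-actin (Acta1) forms the thin filament of skeletal muscle. Ankrd1, a cardiac ankyrin repeat protein, binds titin and also acts in the nucleus, and its gene is widely used as a readout of the YAP and TEAD transcription regulators.

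RefSeq promoters were at hand for 5 of the 8 genes, namely Klf5, Lgals4, Sncg, Map2 and Acta1. The table had no entry for Msln, Gabrp and Ankrd1. Each entry spans 250 bases before to 50 bases after a gene's start in build GRCr8. Searches on both strands covered 6 motifs: the CArG box bound by serum response factor, GGAATG bound by TEAD factors, TGANTCA bound by AP-1, GGGCGG bound by SP and Kruppel-like factors, CCACCC bound by Kruppel-like factors, and the TATA box TATAAA. The sequences of the 2 promoters with a match are shown because these genes lay higher in the same tumors, with every match in capitals, read along the gene from 5′ to 3′. Acta1 lies at chr19:68784145-68784444 on the minus strand and Sncg at chr16:9711287-9711586 on the minus strand.
Acta1: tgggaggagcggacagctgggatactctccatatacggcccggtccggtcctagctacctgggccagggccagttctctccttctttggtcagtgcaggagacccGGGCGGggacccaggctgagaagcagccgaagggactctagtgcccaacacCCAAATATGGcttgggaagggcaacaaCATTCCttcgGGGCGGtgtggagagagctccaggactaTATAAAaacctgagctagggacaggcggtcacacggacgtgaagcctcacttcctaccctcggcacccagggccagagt
Sncg: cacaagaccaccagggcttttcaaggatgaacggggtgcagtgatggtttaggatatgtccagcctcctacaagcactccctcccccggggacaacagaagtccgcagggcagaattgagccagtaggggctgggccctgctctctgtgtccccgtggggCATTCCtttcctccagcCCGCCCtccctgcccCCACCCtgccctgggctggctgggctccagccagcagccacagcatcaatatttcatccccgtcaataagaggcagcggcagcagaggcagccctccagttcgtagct
In Acta1 the capitals mark, in order, the SP motif, a CArG box, the TEAD motif read on the other strand, a further SP motif and the TATA box. In Sncg they mark the TEAD motif and the SP motif, both read on the other strand, and the Kruppel-like factor motif. None of the matches overlap. Of all 33469 promoters in the table, 1.64% held a CArG box, 14.2% GGAATG, 7.33% TGANTCA, 33.1% GGGCGG, 29.4% CCACCC and 14.2% TATAAA. No match to any of the 6 motifs lay in the windows of Klf5, Lgals4 and Map2. A match is a description of these letters and not of binding.

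Msln, Gabrp and Lgals4, the genes of surface and secreted proteins, had the largest differences of the 8. Msln (probe set 1368441_at) read 8.25, 9.17, 8.27 and 8.15 on nontumor arrays 1 to 4 and 13.78, 13.79, 13.18 and 13.88 on tumor arrays 1 to 4. It read 7.58 in LEA and 7.74, 7.98 and 8.42 in LEC at 4, 26 and 39 weeks. Every tumor array was at least 4.01 above the highest other array, and the tumor mean was 5.20 higher than the nontumor mean (13.66 ± 0.32 against 8.46 ± 0.47, SD, n = 4 each), or 36.7-fold. Msln stood above the absent-RNA level on all 12 arrays. So did the pancreas marker Ins1 and the muscle marker Myog, at nontumor means of 7.72 and 7.39. Whether such values outside tumor read the RNA of the named gene was not tested.

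Gabrp was read by a pair of probe sets. The brighter, 1385190_at, read 6.06, 6.46, 6.51 and 6.13 in nontumor and 11.63, 11.25, 12.03 and 11.58 in tumor, against 5.92 in LEA and 6.29, 6.13 and 6.29 in LEC at 4, 26 and 39 weeks. Its nontumor values were above the absent-RNA level on 4 of 4 arrays by a small margin, and the tumor mean was 40.4-fold higher (11.62 ± 0.32 against 6.29 ± 0.23, SD, n = 4 each). The other, 1387600_at, read 4.99, 4.97, 5.11 and 4.92 in nontumor, under the absent-RNA level, and 9.82, 9.41, 10.63 and 9.23 in tumor. Such a value bounds a level from above only. Set against the absent-RNA level, its tumor mean was at least 14.1-fold higher.

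Lgals4 (1368269_at) read 5.93, 7.42, 7.29 and 5.66 in nontumor and 11.28, 12.31, 12.34 and 11.97 in tumor. It had the widest nontumor spread of the 8 genes, 0.91 (SD, n = 4), because arrays 2 and 3 stood above the absent-RNA level and arrays 1 and 4 did not. LEA read 5.91 and LEC read 6.01, 5.37 and 6.14 at 4, 26 and 39 weeks, all at or below that level. The tumor mean of 11.97 ± 0.49 (SD, n = 4) was 42.2-fold over the nontumor mean of 6.57, and 39.2-fold over it with the absent-RNA level as a floor.

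For the transcription factor Klf5, the brightest of 4 probe sets, 1394039_at, read 5.50, 5.997, 7.01 and 5.78 in nontumor and 11.03, 11.35, 10.88 and 11.44 in tumor. It read 5.08 in LEA and 5.22, 5.66 and 5.91 in LEC at 4, 26 and 39 weeks. The means of 11.17 ± 0.26 and 6.07 ± 0.66 (SD, n = 4 each) were 34.4-fold apart, or 30.3-fold with the floor, and 2 of 4 nontumor arrays were above the absent-RNA level. The probe sets of the gene disagreed in size. In tumor, 1368363_at read 9.85, 10.15, 9.86 and 10.11 against 5.80 to 6.59 in nontumor, a 14.7-fold difference. Probe set 1385961_at read 8.72, 9.06, 8.75 and 9.08 in tumor and lay under the absent-RNA level on all 8 other arrays, so it was at least 7.72-fold higher. The fourth, 1398159_at, read 5.94, 6.21, 5.96 and 6.16 in tumor against 5.70 to 5.87 in nontumor, at least 1.08-fold higher, and hardly followed the others. The sequence each of them reads was not used here.

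Among the genes known from neurons, Sncg (1398245_at) read 7.10, 7.16, 7.42 and 7.41 in nontumor and 12.28, 12.34, 11.33 and 12.91 in tumor. Its tumor mean of 12.22 ± 0.65 (SD, n = 4) was 30.7-fold over the nontumor mean of 7.27 ± 0.16 (SD, n = 4). Like Msln it was above the absent-RNA level on all 12 arrays. LEA read 7.04 and LEC at 4 weeks 6.82, whereas LEC at 26 and 39 weeks read 8.00 and 8.07, above the highest nontumor array, which no other gene's brightest probe set did.

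Map2 was read at 5.34, 6.47, 6.09 and 5.41 in nontumor and 10.87, 10.98, 10.42 and 11.22 in tumor by 1388152_at. LEA read 4.60 and LEC at 4, 26 and 39 weeks read 4.77, 5.71 and 5.48, all below the absent-RNA level, as were 2 of 4 nontumor arrays. The means of 10.87 ± 0.34 and 5.83 ± 0.54 (SD, n = 4 each) lay 33.0-fold apart, or 26.6-fold with the floor. Its other probe set, 1368411_a_at, gave a far smaller difference: 7.13, 7.13, 6.52 and 7.19 in tumor and 5.57 to 5.71 in nontumor, at least 2.05-fold.

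Of the genes known from striated muscle, Ankrd1 (1367664_at) read 5.86, 6.38, 5.84 and 5.99 in nontumor and 11.03, 11.20, 10.69 and 11.20 in tumor. LEA read 5.68 and LEC read 5.84, 5.94 and 5.84 at 4, 26 and 39 weeks. All 8 of these arrays stayed near the absent-RNA level, with 2 above it, while the tumor mean of 11.03 ± 0.24 (SD, n = 4) was 32.2-fold over the nontumor mean of 6.02 ± 0.25. Its other probe set, 1367665_at, read 9.89, 10.09, 9.44 and 9.83 in tumor and 5.70 to 5.97 in nontumor, a 15.6-fold difference with 1 of 4 nontumor arrays above the absent-RNA level, or 14.3-fold with the floor.

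Acta1 (1369928_at) read 4.89, 5.60, 5.33 and 5.37 in nontumor and 9.59, 10.11, 9.68 and 10.35 in tumor. It read 4.95 in LEA and 4.69, 5.16 and 5.17 in LEC at 4, 26 and 39 weeks, so none of the 8 arrays without tumor was above the absent-RNA level. Its tumor mean of 9.93 ± 0.36 (SD, n = 4) was 24.8-fold over the nontumor mean and at least 15.7-fold over the absent-RNA level. Since its nontumor values only bound the level from above, its distance from the 30-fold mark of the rule is not settled.

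**Figure D1:**
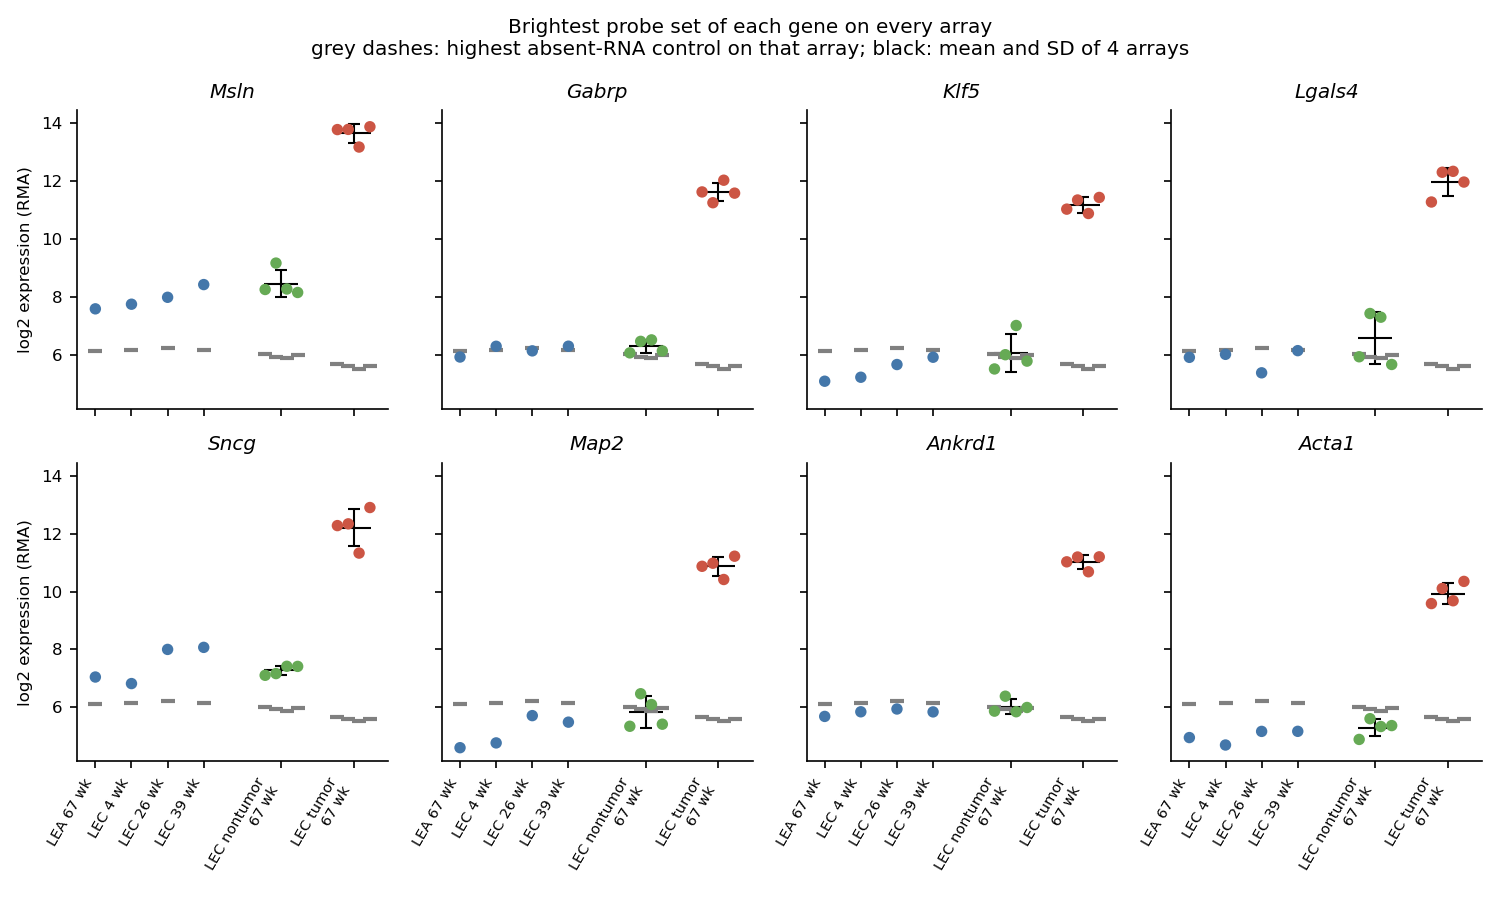
Log2 expression of the brightest probe set of each of the 8 genes (vertical axis) on the 12 arrays, with the mean and SD of the 4 nontumor and 4 tumor arrays in black and the highest absent-RNA control of each array as a grey dash. The tumor points lie between 9.59 and 13.88 and those of the other arrays between 4.60 and 9.17, with Msln and Sncg above the control on every array.

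On all 14 probe sets the lowest tumor array was above each of the other 8 arrays, with gaps of 3.26 to 4.74 for the brightest probe set of each gene and 0.07 for Klf5 1398159_at. Of all probe sets, 24.3% had no such overlap, and since the rule used this contrast nothing is read from the count of 14. The count was also 14 without the arrays labelled 26 and 39 weeks. Of 112 values of these probe sets on arrays without tumor, 79 were at or below the absent-RNA level. Among the brightest probe sets it was 34 of 64. The 5 probe sets under that level on all 8 such arrays were Gabrp 1387600_at, Klf5 1385961_at and 1398159_at, Map2 1368411_a_at and Acta1, and 16.9% of all probe sets did the same. By their brightest probe sets, Klf5, Lgals4, Map2 and Ankrd1 were at or below that level on 6 of the 8 arrays and Acta1 on 8, whereas Gabrp was so on 2 and Msln and Sncg on 0. The large tumor difference asked by the rule favours a low level outside tumor. The share of all probe sets at or below the absent-RNA level on most of the 8 arrays is not given here, so nothing is read from these counts. A value above that level was not tested for being the gene's own RNA. These counts rest on the choice of control: against the median of the 27 controls in place of the highest, 1 of the 112 values was at or below the absent-RNA level.

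Around the mark of the rule, 9 genes or 0.0633% (and 0.0387% of probe sets) had a tumor mean at least 30-fold over the nontumor mean, with values under the absent-RNA level taken as measured: the 7 members other than Acta1, Lum at 43.8-fold and Cxcl6 at 43.7-fold. Just inside it lay Sncg at 30.7-fold. Just outside lay Acta1 at 24.8-fold, the bile duct keratin Krt7 at 24.4-fold, the secretin receptor Sctr at 24.3-fold and cardiac troponin T, Tnnt2, at 22.9-fold. Lum encodes the matrix proteoglycan lumican and Cxcl6 a neutrophil-attracting chemokine.

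**Figure D2:**
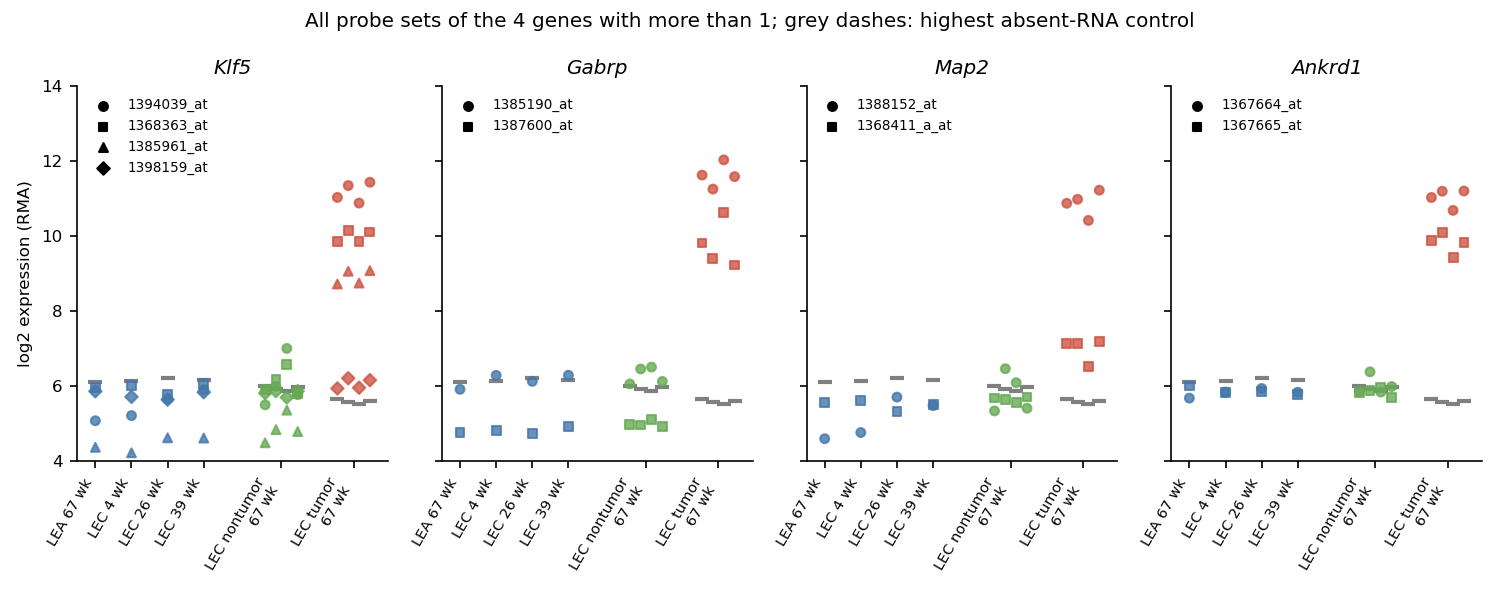
Log2 expression (vertical axis) of every probe set of Klf5, Gabrp, Map2 and Ankrd1 on the 12 arrays, one marker shape per probe set, with the highest absent-RNA control as a grey dash. Klf5 1398159_at stays between 5.94 and 6.21 in tumor and Map2 1368411_a_at between 6.52 and 7.19, far under the other probe sets of the same genes.

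The tumor pools did not rank the same way for every gene. By the brightest probe sets, tumor array 4 was the highest of the 4 for 6 of the 8 genes and was the lowest for none. Tumor array 3 was the lowest for 5 genes, Msln, Klf5, Sncg, Map2 and Ankrd1, yet the highest for Gabrp and Lgals4. Marker lists differed between these arrays too. The median of 14 hepatocyte markers, 13.52 to 13.82 in nontumor, was 12.23, 10.87, 12.92 and 8.69 on tumor arrays 1 to 4. Tumor array 4, where most of the 8 genes were highest, thus had the least hepatocyte RNA, and array 3 the most. Other lists also set array 3 apart. On tumor arrays 1 to 4 the median of stellate cell and fibroblast markers was 10.69, 10.80, 11.45 and 10.69. Smooth muscle and myofibroblast markers read 9.03, 9.03, 10.02 and 9.37, and YAP and TEAD targets 10.57, 10.69, 10.01 and 10.58. The part of any of these lists in the values of the 8 genes was not tested. In bulk tissue, fewer cells of a type and less RNA per cell cannot be told apart.

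Among the nontumor pools, array 2 was the highest for Msln, Lgals4, Map2, Ankrd1 and Acta1, array 3 for Gabrp, Klf5 and Sncg, and array 1 the lowest for 5 genes. The median of 12 bile duct and progenitor cell markers was 8.38 and 8.91 on nontumor arrays 2 and 3 against 7.66 and 7.56 on arrays 1 and 4. Stellate cell and fibroblast markers split these arrays the same way, at 9.05 and 8.86 against 8.34 and 8.36, as did YAP and TEAD targets, at 9.43 and 9.31 against 8.90 and 8.86. Ankrd1, lowest on array 3, and Sncg, higher on array 4 than on array 2, did not follow that split. Nor did Acta1, at 5.33 on array 3 and 5.37 on array 4. Msln followed it narrowly, at 8.27 on array 3 and 8.25 on array 1. The part of these lists in the values was not tested.

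Before the tumor stage, the question the age series and the control strain address is whether these RNAs were already higher in diseased liver. Nontumor LEC liver at 67 weeks was set against each single array in a limma model of all 12 arrays, with the single arrays assumed to vary like the replicated groups. All 4 comparisons share the nontumor arrays, which the rule had used. None of the 56 comparisons, 14 probe sets against 4 arrays, passed an adjusted p of 0.05 (Benjamini-Hochberg over all probe sets), and 4 had an unadjusted p under 0.05. The background was low too: 0.19% of all probe sets rose and 0.354% fell against LEA, 0.174% and 0.203% against LEC at 4 weeks, 0.0419% and 0.171% against 26 weeks, and 0.0258% and 0.122% against 39 weeks.

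The brightest probe sets lay higher in nontumor liver for 8 of 8 genes against LEA (median difference 0.52, against -0.03 over all probe sets) and 8 of 8 against LEC at 4 weeks (0.58, against -0.02). They did so for 7 of 8 against 26 weeks (0.15, against -0.01) and 6 of 8 against 39 weeks (0.15, against -0.04). Of all 14 probe sets, 12, 14, 12 and 11 lay higher in these comparisons. The share of all probe sets that lay higher was not counted, so nothing is read from these counts. Klf5, Lgals4, Map2, Ankrd1 and Acta1 were at or below the absent-RNA level on all 4 single arrays. Gabrp was so in LEA and at 26 weeks. Single nontumor arrays set some signs of the differences: without nontumor array 2 the sign turned for Msln against 39 weeks, Gabrp against 4 weeks, and Map2 and Ankrd1 against 26 weeks. Without array 3 it turned for Gabrp against 4 weeks and Klf5 against 39 weeks, and without array 1 or array 4 for Gabrp against 39 weeks. Map2 had the largest difference from LEA, 1.23 ± 0.43 (SE; limma, adjusted p = 0.296), with LEA and 2 nontumor arrays under the absent-RNA level. It was 1.06 ± 0.43 higher than at 4 weeks (SE; limma, adjusted p = 0.333). Msln, which was above the absent-RNA level throughout, was 0.88 ± 0.38 higher than in LEA (SE), with 4 of 4 nontumor arrays above the LEA array. Klf5 differed from LEA by 0.99 ± 0.47 (SE; limma, adjusted p = 0.443). For Klf5 too, LEA and 2 nontumor arrays were under the absent-RNA level. Other probe sets of these genes gave smaller differences. Klf5 differed from LEA by 0.50, 0.14 and -0.05 on 1385961_at, 1368363_at and 1398159_at. Map2 1368411_a_at differed by 0.08 from LEA and by 0.04 from 4 weeks. A p that misses the threshold does not show that these levels were alike.

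For Msln the order of levels was LEA, then LEC at 4, 26 and 39 weeks, then nontumor and tumor. The place of nontumor after 39 weeks rests on nontumor array 2: the nontumor mean was 0.04 above the array of 39 weeks with it and -0.20 from it without it, and the other 3 nontumor arrays lay below 8.42. Each step between neighbours below tumor was smaller than the nontumor SD of 0.47. Sncg had another order. LEC at 26 and 39 weeks lay 0.73 and 0.80 above the nontumor mean (SE 0.45; limma, adjusted p = 0.590 and 0.616), and those are the arrays that stood apart in the check of sex. The same arrays carried more bile duct marker RNA, with medians of 8.40 and 8.34 against 6.57 in LEA and 6.82 at 4 weeks. Nontumor arrays 2 and 3 had such medians as well, 8.38 and 8.91, with Sncg at 7.16 and 7.42. The part of these markers, or of what set the arrays of 26 and 39 weeks apart, in the Sncg values was not tested. Set against the LEA array with no replicate on either side, 1 member probe set was at least 2-fold away at 26 weeks (Map2 1388152_at, under the absent-RNA level on both arrays) and 1 at 39 weeks (Sncg), where 2.91% and 3.23% of all probe sets were. At 4 weeks none of the 14 was, against 1.83% of all.

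**Figure D3:**
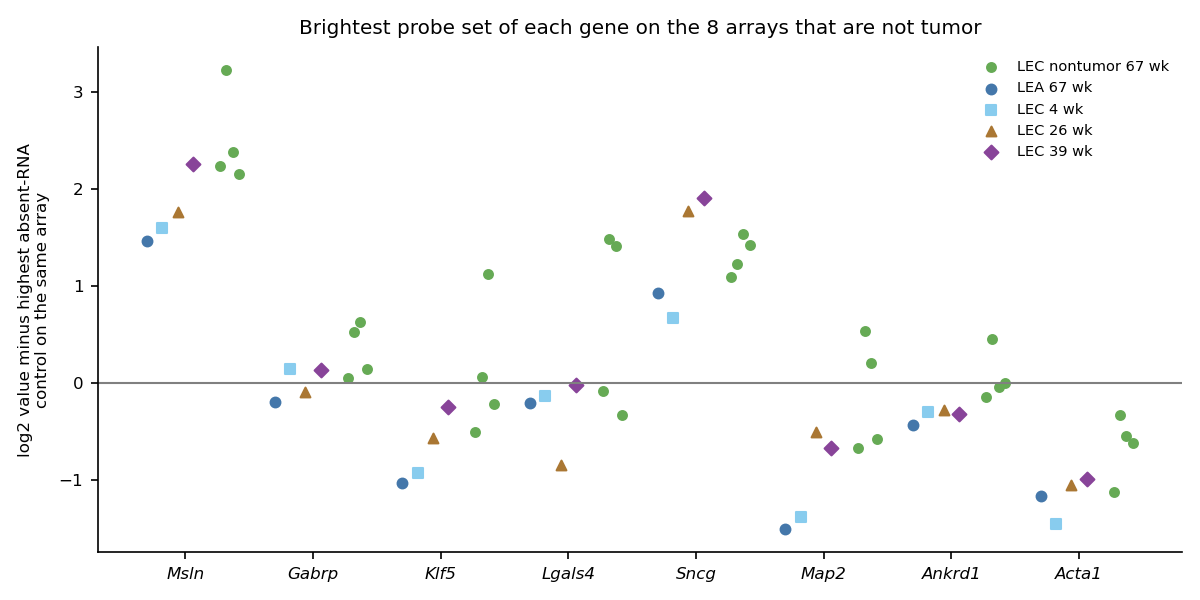
Log2 value of the brightest probe set minus the highest absent-RNA control of the same array (vertical axis) for the 8 genes on the 8 arrays without tumor, coloured by group, with 0 marking the control level. Msln and Sncg lie above 0 on every array, Acta1 lies below 0 on every array, and Sncg is highest on the LEC arrays of 26 and 39 weeks.

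Markers of the tissues these genes are known from were then counted in tumor against nontumor, each gene by its brightest probe set and with the 8 genes left out. Of all probe sets 31.7% rose and 32.2% fell, and of all genes 38.8% rose and 29.2% fell (limma, adjusted p under 0.05), with a median difference of 0.07, and each list's counts are given beside that. Lists share some genes, were chosen with earlier results known, and received no set test.

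Of 9 mesothelial markers, 3 rose and 1 fell, with a median of -0.14 on the log2 scale. Those that rose were Cpe, a prohormone-processing enzyme, by 3.71 ± 0.23, the transcription factor Wt1 by 1.40 ± 0.19 and the uroplakin Upk1b by 0.70 ± 0.17 (SE), and Krt14 fell by 0.44. Cpe and Upk1b were under the absent-RNA level on 4 of 4 nontumor arrays, so Cpe was at least 6.55-fold higher in tumor. Upk1b was also under it on 1 tumor array and no fold is given. Calb2, the calretinin used to stain mesothelium, differed by -0.14 ± 0.08 (SE; limma, adjusted p = 0.141), and Bnc1 was under the absent-RNA level on all 12 arrays. The log2 values of the list, added over its genes on each array, came to 58.1 to 60.3 in nontumor and 62.5 to 65.3 in tumor. Such a sum of log2 values is not an amount of RNA, and its ratio is not a fold. The number that fell depended on scaling: 3 rose and 3 fell after a further quantile normalization, and 3 rose and 5 fell with array medians subtracted.

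Of 17 neuron markers other than Map2 and Sncg, 4 rose and 4 fell, with a median of -0.03. The ubiquitin hydrolase Uchl1 rose by 1.67 ± 0.12 and neuron-specific enolase, Eno2, by 0.88 ± 0.12 (SE), while the growth cone protein Gap43 fell by 0.74 and synaptophysin, Syp, by 0.69. Eno2, Stmn2, Nefm and Elavl4 were under the absent-RNA level on all 12 arrays. The sum of log2 values was 109.5 to 113.6 in nontumor and 111.8 to 113.6 in tumor. Of 8 Schwann cell and glia markers, 4 rose, led by S100b at 1.69 ± 0.29 and Mbp at 1.53 ± 0.23 (SE), and 4 fell, led by Sox10 at -1.17 and Ngfr at -0.72.

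Most skeletal and cardiac muscle markers were lower, unlike Acta1. Of 24 markers other than Acta1, 2 rose and 16 fell, with a median of -0.35. Cardiac troponin T, Tnnt2, rose by 4.51 ± 0.14 and desmin, Des, by 1.95 ± 0.17 (SE), whereas the myosin heavy chain Myh1 fell by 0.91 and the fast troponin Tnnt3 by 0.89. Myh1 was bright in liver without tumor, with a mean of 12.54 in nontumor and 12.14 in LEA, against a mean of 11.63 in tumor. The myosin heavy chains Myh2, Myh4 and Myh7 were under the absent-RNA level on all 12 arrays, as were Tnnt1, Myl1, Mb and Myod1. Of these, Myh2, Myh7, Tnnt1, Mb and Myod1 are among the 16 falls, and no fall of their RNA is read from them. Whether the Myh1 probe set reads muscle myosin was not tested, so its fall is not read as one of muscle RNA, though the counts include it. Tnnt2 was under the absent-RNA level on 4 of 4 nontumor arrays, so it was at least 10.9-fold higher in tumor. The falls ran from 0.19 to 0.91, where the absent-RNA controls themselves differed by a median of -0.16, and the part of that shift in the falls was not tested. The sum of log2 values was 156.2 to 159.5 in nontumor and 153.7 to 156.4 in tumor. The count of falls was 12 after a further quantile normalization and 19 after subtraction of array medians, and the 2 that rose did so under both.

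Epithelial lists went the other way. All 12 of the bile duct and progenitor cell markers counted rose, by 1.91 to 4.61 with a median of 3.82, among them Krt7 at 4.61 ± 0.19 and the secretin receptor Sctr at 4.60 ± 0.31 (SE), beside Klf5 and Gabrp, which the list also names. Its sum of log2 values was 91.0 to 104.3 in nontumor and 139.3 to 141.8 in tumor. Among 11 intestinal markers 8 rose and 1 fell, with a median of 1.37. Muc13 rose by 2.44 ± 0.34 and Krt20 by 2.13 ± 0.17 (SE), the intestinal fatty acid binding protein Fabp2 fell by 1.25, and the intestinal regulator Cdx2 rose by 0.97 ± 0.19 (SE). Pancreas markers did not follow, with 1 of 14 higher (Cela1, 2.61 ± 0.24, SE) and 9 lower, led by Cpa1 at -1.60 and Cpb1 at -0.71. Cpa1 was at or below the absent-RNA level on 3 of 4 tumor arrays. Amy2a3 and Ctrb1, counted among the falls, were so on all 12 arrays. The list median was -0.33, where the absent-RNA controls differed by a median of -0.16, and the part of that shift was not tested.

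The remaining cell types of a liver were checked in the same way. Smooth muscle and myofibroblast markers rose in 9 of 12 and fell in 0, led by Tagln at 2.87 ± 0.21 and Tpm1 at 2.51 ± 0.09 (SE). Stellate cell and fibroblast markers rose in 10 of 14 and fell in 1, led by Lum at 5.45 ± 0.47 and the matrix protein Postn at 3.80 ± 0.35 (SE), with Ngfr at -0.72. Postn was under the absent-RNA level on 4 of 4 nontumor arrays, so it was at least 6.03-fold higher. Hepatocyte markers rose in 0 of 14 and fell in 11, most of all Tat at -3.95 ± 0.87 and Asgr1 at -3.93 ± 0.83 (SE). Their sum of log2 values was 185.2 to 189.0 in nontumor and 124.3 to 176.8 in tumor. The endothelial list rose in 5 of 9 and fell in 3, from Vwf and Eng at 1.53 and 1.19 to Stab2 and Lyve1 at -3.12 and -1.01. For macrophages 4 of 9 rose and 2 fell (Adgre1 at 1.20, Csf1r at 0.68, Clec4f at -3.85, Cd163 at -1.15), and for lymphocytes 4 of 9 rose and 1 fell (Cd3d at 1.64, Cd3e at 1.45, Nkg7 at -0.23). Of 6 fat cell markers 1 rose, Adipoq at 0.80, and 4 fell, led by Cidec at -2.54. Where a list had 0 genes called in a direction, in the bile duct, smooth muscle and hepatocyte lists, 0 passed in that direction at an unadjusted p under 0.05 as well. The part of any of these cell types in the levels of the 8 genes was not tested.

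The relatives and partners of each gene were counted next. Of 15 other GABA-A receptor subunits 0 rose and 8 fell, with a median of -0.26. The largest falls were Gabrb2 at -0.75 ± 0.09 and Gabra6 at -0.69 ± 0.10 (SE), and the others lay between -0.65 and 0.06. Gabrr3, counted among the falls at -0.65, was under the absent-RNA level on all 12 arrays. The absent-RNA controls themselves differed by a median of -0.16, and the part of that shift in the falls was not tested. Under a further quantile normalization 1 subunit, Gabra2, passed the test as higher, at 0.22, while it was not called otherwise and was under the absent-RNA level on all 12 arrays. No partner subunit was therefore called higher beside Gabrp on the deposited scale, and 0 were higher at an unadjusted p under 0.05. Genes that make, move or break down GABA rose in 0 of 8 and fell in 7: the transporter Slc6a13 at -4.16 ± 0.56 and GABA transaminase, Abat, at -3.38 ± 0.40 (SE) fell the most. The liver makes both. Hepatocyte markers fell in the same tumors, and their part in the falls of Slc6a13 and Abat was not tested.

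Beside Klf5, 6 of 13 other Kruppel-like factors rose and 4 fell, with a median of 0.29. Klf4 rose by 2.12 ± 0.23 and Klf3 by 1.72 ± 0.15, followed by Klf2 at 1.66, Klf6 at 1.53, Klf13 at 0.76 and Klf7 at 0.44, and Klf15 fell by 1.58, Klf12 by 0.83, Klf9 by 0.39 and Klf1 by 0.30. Klf10, Klf11 and Klf16 were not called, at 0.29, 0.22 and 0.29. Other epithelial transcription factors rose in 5 of 11 and fell in 3, with Elf3 at 2.85 ± 0.18, Ehf at 2.27 ± 0.20, Foxa1 at -1.23 ± 0.14 and Elf5 at -0.51 ± 0.11 (SE) at the ends, Elf5 under the absent-RNA level on all nontumor and tumor arrays.

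Of 8 galectins and binding partners other than Lgals4, 4 rose and 2 fell, with a median of 0.62. Lgals1 rose by 3.20 ± 0.15, Lgals3 by 1.94 ± 0.11, Lgals2 by 1.37 ± 0.31 and the galectin-3 binding protein Lgals3bp by 1.07 ± 0.08 (SE). Lgals8 fell by 0.74 and Lgals9 by 0.58, and Lgals7 and Lgals12 were not called, at 0.18 and 0.01. All 3 membrane mucins measured beside Msln rose, Muc1 by 2.83 ± 0.28, Muc4 by 2.65 ± 0.22 and Muc13 by 2.44 ± 0.34 (SE), and Muc4, under the absent-RNA level on 4 of 4 nontumor arrays, was at least 4.93-fold higher. Of the synucleins, beta-synuclein, Sncb, fell by 0.55 and the synuclein partner Sncaip rose by 0.57 beside the Sncg difference of 4.94, with Sncaip under the absent-RNA level on 4 of 4 nontumor and 3 of 4 tumor arrays.

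Map2's relatives rose more often than they fell, 9 against 1 of 15 microtubule-associated proteins, with a median of 0.53. The kinase Dclk1 rose by 3.50 ± 0.19 and Mapre3 by 1.71 ± 0.08 (SE), Map1a fell by 0.28, and tau, Mapt, was not called at 0.13. Of 10 tubulins 6 rose and 0 fell, with Tubb2b at 3.14 ± 0.18 and Tubb5 at 1.78 ± 0.10 (SE) leading. These counts were 7 and 4 after a further quantile normalization, and with array medians subtracted 3 microtubule-associated proteins and 1 tubulin fell.

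The other muscle ankyrin repeat proteins did not accompany Ankrd1. Of 6 such genes and titin partners 0 rose and 4 fell: Mypn at -0.78, Ttn at -0.71, Ankrd23 at -0.58 and Ankrd2 at -0.39. Mypn was under the absent-RNA level on 4 of 4 tumor and 2 of 4 nontumor arrays. Known targets and parts of the YAP and TEAD pathway rose in 14 of 18 and fell in 1, with a median of 1.42. Ccn2, the connective tissue growth factor, rose by 4.33 ± 0.31, tissue factor, F3, by 3.41 ± 0.08 and Ccn1 by 2.35 ± 0.19 (SE), while the ectonucleotidase Nt5e fell by 2.12. All 5 actins and actin-related genes measured beside Acta1 rose, smooth muscle actin, Acta2, by 1.72 ± 0.23, Actg1 by 0.97 ± 0.09 and Actg2 by 0.66 ± 0.21 (SE), Actg2 with 10 of 12 arrays under the absent-RNA level.

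In the lists of GABA handling, tubulins, muscle ankyrin repeat proteins, actins and mucins, the direction with 0 genes called also had 0 at an unadjusted p under 0.05.

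**Figure D4:**
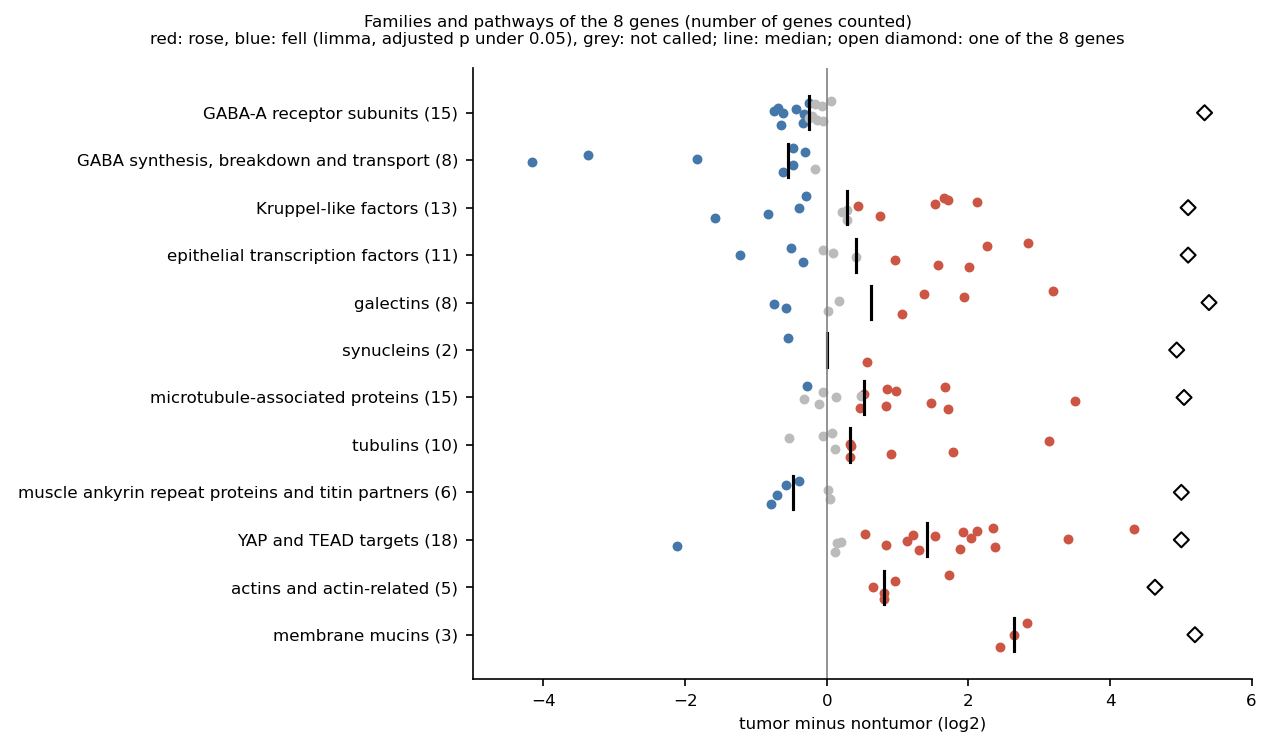
Tumor minus nontumor difference on the log2 scale (horizontal axis) for relatives and pathway genes of the 8 genes, in the same colours and with list medians as black lines and the 8 genes as open diamonds. Each diamond lies to the right of every other gene of its list, from 4.63 for Acta1 to 5.40 for Lgals4. The rule chose the 8 genes by this difference, so nothing is read from that place.

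In nontumor liver against LEA, 0.232% of all genes rose and 0.331% fell (limma, adjusted p under 0.05). In the family lists 1 gene passed, Lgals3bp, which was 1.60 higher in nontumor liver. In the cell type lists the stellate cell collagens Col1a1 and Col3a1 were 2.10 and 1.36 higher, and the pancreatic enzyme Cpa1 was lower, at a mean of 7.07 against 12.22 on the single LEA array.

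Likeness of pattern was measured as the root mean square difference between profiles over the 12 arrays, each centred on its own mean. Because the arrays split into tumor and the rest, between 888 and 1544 genes had a Pearson correlation over 0.95 with a given member, and no p is given. The 3 nearest genes of each member make 24 places, of which 15 went to other members. The rule itself favours this, since members share a large tumor difference and this measure is small between genes that share one, so nothing is read from the 15. With Pearson's r in its place, 2 of the 24 places held the same gene. For Msln they were Map2, Ankrd1 and Klf5, for Map2 Msln, Klf5 and Sctr, and for Klf5 Map2, Msln and Ccn2. Ankrd1 had Acta1, Msln and Tnnt2, and Acta1 had Ankrd1, the integrin subunit Itgb6 and the sphingolipid desaturase Degs2. For Gabrp they were Ankrd1, Cxcl6 and Msln, for Lgals4 Cxcl6, Klf5 and Gabrp, and for Sncg Prr15l, Acta1 and Itgb6. The differences were 0.25 to 0.56 on the log2 scale. Without the arrays labelled 26 and 39 weeks 16 of the 24 places held the same gene. Between members, the 28 correlations ran from 0.944 (Lgals4 and Sncg) to 0.996 (Ankrd1 and Acta1).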

How the data were processed

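Rat liver RNA of 12 samples was hybridized to 1 array each, from 3 µg of total RNA. The deposited table holds log2 values; the submitters' processing notes name RMA and R 2.6.1, and whether all arrays were normalized together is not given in the sources used here. RMA brings arrays to a common distribution, so a value is relative to the rest of its array, and the number of arrays limits precision.

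Of 31099 probe sets, 57 controls were left out and 31042 tested with limma 3.58.1 in R 4.3.3 (6 group means, 6 residual degrees of freedom, Benjamini-Hochberg), checked on simulated data. The annotation gave 20826 a single gene, 436 several and 9780 none listed; genes came only from the first, by the probe set of highest mean. All 8 members with every probe set are named, and in each list up to 2 called genes at either extreme, with close relatives, Ccn1 and Ccn2, Xist and Eif2s3y. Upk1b, Calb2, Cdx2, Mapt, Col1a1, Col3a1, the genes near the 30-fold mark and the markers under the absent-RNA level were named after their values were seen. Bounds use, on each array, the higher of the probe set's value and the highest control. The members and lists were chosen with earlier results of these data known. Promoters come from RefSeq, build GRCr8. Alternatives changed the normalization, filter, threshold, prior, weights, samples, pairing and probe set choice; 3 were added after seeing the data.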

Additional observations from a re-analysis of the deposited data

Results flagged for a closer look

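In 28 groups of 4 arrays, the 14 probe sets in tumor and in nontumor, a single array stood far from the others in 3 (gap to the nearest array over the whole range above Dixon's critical value for 4 samples). Chance alone flags about 1 in 20 such groups. Msln read 9.17 on nontumor array 2, with the next highest at 8.27. It read 13.18 on tumor array 3, with the next lowest at 13.78. Map2 1368411_a_at read 6.52 on tumor array 3, with the next lowest at 7.13. Tumor array 3 had the highest median of the 4 tumor arrays for hepatocyte markers, 12.92, and for stellate cell and fibroblast markers, 11.45. The part of either in these values was not tested.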

How the results depend on the processing

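None of the 14 probe sets passed the test against LEA or against LEC at 4, 26 or 39 weeks under any alternative (178 values in each comparison; limma, adjusted p from 0.201 to 0.999). Of 206 values of the tumor minus nontumor difference, 201 moved by less than 1 SD. The other 5 were the means over all probe sets of Gabrp (5.06), Klf5 (3.32), Map2 (3.19) and Ankrd1 (4.49), and Klf5 1398159_at after a further quantile normalization (0.37). Counts over all probe sets moved more, and the cause was not tested apart from the smaller number of probe sets tested where dim ones were left out. For tumor against nontumor 19845 were called, the same number in the fit of those 8 arrays alone, 5037 at 2-fold or more and 10699 without dim probe sets. The split was 9834 higher and 10011 lower (49.6% higher), 8524 and 13052 (39.5%) with array medians subtracted, which puts the tumor arrays 0.10 lower, and 64.3% higher without dim probe sets. Against LEA 169 were called, 106 without dim probe sets, 318 with array weights and 93 to 254 when each array was left out. Against 4 weeks 117 were called, 198 after quantile normalization, 74 without dim probe sets, 377 with array weights and 23 to 167 leaving out arrays. Against 26 weeks 66 were called, 23 without dim probe sets, 161 with array weights and 23 to 79 leaving out arrays. Against 39 weeks 46 were called, 18 without dim probe sets, 149 with array weights and 18 to 47 leaving out arrays. With the median control in place of the highest, 1 of 112 values outside tumor lay at or below the absent-RNA level, against 79. With Pearson's r for likeness, 2 of 24 nearest genes were shared. Of 52 list counts, 18 moved by over 1.5 times without dim probe sets, 3 after quantile normalization and 1 with the mean over probe sets. With array medians subtracted, chosen after seeing the data, 5 mesothelial markers, 7 neuron markers and 12 GABA-A subunits fell. Title numbers were not taken as pairs: same-numbered tumor and nontumor arrays had correlations of deviations of 0.05, 0.14, -0.08 and 0.14, and not every array correlated best with its own number. With the number as a replicate block 18957 probe sets were called, 9698 higher and 9259 lower.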
